A study of Mus musculus with 52 samples.

Results

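Psat1, Phgdh, Psph, Shmt2, Mthfd2, Asns, Chac1, Trib3, Ddit3 and Atf4 are genes of serine synthesis, of mitochondrial folate metabolism and of the integrated stress response. They were taken from the count table by symbol. Each symbol matched 1 row, and they make 10 of 55291 genes in the table. In the integrated stress response, kinases that sense amino acid shortage or unfolded protein phosphorylate the translation factor eIF2. General translation then drops while the messenger RNA of Atf4 is translated more, and the ATF4 protein switches on genes that make, import and charge amino acids. Pluripotent stem cells draw heavily on serine, glycine and folate metabolism for nucleotides and methylation. Because ATF4 is controlled largely at translation, the counts below give its messenger RNA and not its protein.

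The study counted poly(A) RNA in 52 libraries of 25 groups, taken from cultured mouse stem cells and from aggregates of such cells. Extended pluripotent stem cells (EPSCs) of line mc6-1/Mu-mClover3-10# received totipotency medium over 2 days (stage S1), CHIR-99021 (a GSK3 inhibitor, written CHIR below) with CD1530 (a retinoic acid receptor agonist), with PD0325901 (a MEK inhibitor) or with Elvitegravir (an HIV integrase inhibitor), CHIR alone, or LCDM medium as the starting state. Those groups had 2 libraries each and are called the first set. The second set held EPSCs kept in totipotency medium for 25 passages (P25) or 38 passages (P38), a further 2 libraries of EPSCs in LCDM (EPSC libraries 3 and 4), and mESCs of line 2i-0606-td-ES after 2 days of totipotency medium or in 2i/L medium. It also held aggregates. S2 were aggregates of S1 cells after 1 day in a medium called 4C-64C, and S3 were S2 aggregates after 1 more day in it. S5 were S4 aggregates after 3 days in a peri-implantation medium on Aggrewell plates. At S2 and S3 the medium lacked 8Br-cAMP, Birabresib (a BET inhibitor), CHIR or CD1530 in 1 group each, and at S5 it lacked Activin A, BMP4, FGF4 or XAV939 (a tankyrase inhibitor). All groups were labelled WT, each line was a single line, and S4 was not analysed here. The labels name neither the base medium of the CHIR arms nor how long the S1 cells behind S2 had been in totipotency medium. They also do not list what LCDM or 2i/L medium contains, so either may already hold CHIR. CHIR against EPSCs therefore compares whole media and cannot be read as the effect of adding CHIR.

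Libraries held 16.6 to 108 M counts, and 25056 genes were tested, all 10 of these among them. Levels are CPM, counts brought to a common library size with TMM factors, as mean ± SD over n = 2 libraries. A gene is said to have risen or fallen where edgeR's quasi-likelihood F test gave an adjusted p below 0.05 and a log2 fold change of 1 or more in size. The labels do not say whether libraries of the same group were cultured apart, so p-values measure only the spread between these samples, which may be technical. With 2 libraries a group, groups can lie apart by chance. The share of all tested genes without overlap was not counted, so a lack of overlap below is only a description. In bulk RNA, fewer cells of a type and less RNA per cell cannot be told apart. The libraries numbered 2 of CHIR and of CHIR with PD0325901 stood apart from the libraries numbered 1. Atf4, for example, had 611 and 277 CPM in the CHIR libraries and 610 and 318 CPM with PD0325901, and the median difference between a group's libraries over the 10 genes was 0.62 and 0.45 on the log2 scale there, against 0.03 to 0.25 in the other groups with numbered pairs. Results on these arms are therefore given with and without them. Since 1 spread was estimated over all groups, an SE in these arms understates it. Pluripotency markers (Pou5f1, Nanog, Zfp42, Esrrb) summed to 1610 to 1630 CPM in EPSC libraries 1 and 2, 2680 to 2700 CPM in EPSC libraries 3 and 4 and 2130 to 2150 CPM in mESCs. Markers of 2-cell-like cells (Zscan4c, Zscan4d, Zfp352) summed to 923 to 1000 CPM in S1 and were all at 0 in EPSC libraries 1 and 2.

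Phgdh (chr3:98313170-98339990 in mm10, minus strand) encodes the first enzyme that turns a glycolytic intermediate towards serine. Psat1 (chr19:15904678-15947337, minus strand) encodes the aminotransferase of the next step, and Psph (chr5:129765558-129787449, minus strand) the phosphatase that releases serine. Shmt2 (chr10:127517123-127522444, minus strand) encodes the mitochondrial enzyme that splits serine into glycine and a folate-bound carbon, and Mthfd2 (chr6:83305691-83325908, minus strand) the mitochondrial enzyme that oxidises that carbon unit. Asns (chr6:7675169-7693254, minus strand) encodes asparagine synthetase. Chac1 (chr2:119351229-119354381, plus strand) encodes an enzyme that breaks down glutathione. Trib3 (chr2:152337422-152344032, minus strand) encodes a pseudokinase that restrains ATF4 and CHOP. Ddit3 (chr10:127290774-127296288, plus strand) encodes CHOP, a transcription factor of prolonged stress, and Atf4 (chr15:80255184-80257541, plus strand) the factor that gives the response its targets. Coordinates are those of GENCODE M21, where all 10 are protein-coding. Exons of other genes covered 10.4% of the exonic bases of Psph, 10.9% of Ddit3 and 1.03% of Shmt2. No source used here gives the strand setting of the counting, so reads of these stretches may have been dropped or shared. Phgdh has 1 named pseudogene, whose reads may be shared with it.

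ATF4 binds, with C/EBP partners, an element that joins parts of an ATF and a C/EBP site, written here TGATGNAAN. Over windows from 250 bases before to 50 bases after the RefSeq start (GRCm38.p6), this motif stood on either strand in 3 of the 10 genes, against 4.5% of 27025 genes with a window. It read TGATGAAAC at -23 to -15 in Asns, TGATGCAAC on the other strand at -194 to -186 in Chac1, and TGATGTAAA on the other strand at 13 to 21 bases after the start in Trib3. A related spelling, TGNTGCAAT, was looked for after these windows had been read, and stood in Psat1 at -136 to -128 and in Trib3 at -33 to -25. It stood in 0.781% of genes. Since it was chosen after the members' windows had been read, its number among the members cannot be compared with that share. The motifs do not overlap in these windows. A match is a description of letters, not of binding, and the absence of these letters from the other windows says nothing of the factor. The 250 bases before the start are shown for the 4 genes with a match. They read 5′ to 3′ on the gene's own strand, with the match in capitals, and are credited to RefSeq. The intervals are chr6:7693210-7693459 for Asns, chr2:119350992-119351241 for Chac1, chr2:152344061-152344310 for Trib3 and chr19:15925060-15925309 for 1 of the 2 RefSeq starts of Psat1. In Trib3 only the TGNTGCAAT match lies in the stretch shown.
Asns: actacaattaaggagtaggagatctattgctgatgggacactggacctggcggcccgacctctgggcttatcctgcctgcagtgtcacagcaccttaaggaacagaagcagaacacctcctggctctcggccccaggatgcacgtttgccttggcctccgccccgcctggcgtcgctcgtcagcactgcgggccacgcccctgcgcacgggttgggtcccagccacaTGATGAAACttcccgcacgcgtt
Chac1: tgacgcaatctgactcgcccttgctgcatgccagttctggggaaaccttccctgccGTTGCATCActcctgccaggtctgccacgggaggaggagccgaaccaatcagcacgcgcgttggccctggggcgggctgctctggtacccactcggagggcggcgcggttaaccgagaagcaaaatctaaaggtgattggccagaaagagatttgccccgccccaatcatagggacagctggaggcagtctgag
Trib3: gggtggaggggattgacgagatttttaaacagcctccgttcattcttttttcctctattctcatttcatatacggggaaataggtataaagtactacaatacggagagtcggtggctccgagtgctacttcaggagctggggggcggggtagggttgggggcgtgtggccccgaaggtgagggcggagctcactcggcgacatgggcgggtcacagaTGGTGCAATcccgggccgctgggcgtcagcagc
Psat1: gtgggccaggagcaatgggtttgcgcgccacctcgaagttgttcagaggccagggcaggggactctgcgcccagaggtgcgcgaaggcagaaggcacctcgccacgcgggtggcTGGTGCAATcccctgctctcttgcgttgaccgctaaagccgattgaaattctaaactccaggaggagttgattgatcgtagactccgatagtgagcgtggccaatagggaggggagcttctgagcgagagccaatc

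Across the 26 groups of libraries, with EPSCs split by set, 9 of the 10 genes correlated positively with the mean of the others and Asns negatively. Chac1 had the widest range, with its highest group mean 46.3 times its lowest, followed by Trib3 at 20.1 times, Psat1 at 11.6 times and Mthfd2 at 10.4 times. Ddit3 had the narrowest, at 3.96 times, and Atf4 messenger RNA spanned 4.71 times. The lowest single library of Psat1 was an S3 library at 56.4 CPM and the highest was CHIR library 2 at 710 CPM. Asns ran from 224 CPM in a library of S5 without FGF4 to 1740 CPM in S2 library 1. With group means of log2 CPM centred within each set, Pearson's r with the mean of the other 9 genes lay between 0.53 (Ddit3) and 0.95 (Psat1) for 9 genes and was -0.65 for Asns, over 26 groups. The opposition of Asns belonged to the second set. Its r with each other gene lay between -0.74 and -0.60 over the 20 groups of that set, and between 0.12 and 0.73 over the 6 groups of the first set. Ddit3 also differed between sets, with r to each of the genes other than Asns between 0.55 and 0.74 in the second set and between -0.58 and 0.12 in the first. These points share cells and media within a stage, so r describes these groups and has no test.

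**Figure D1:**
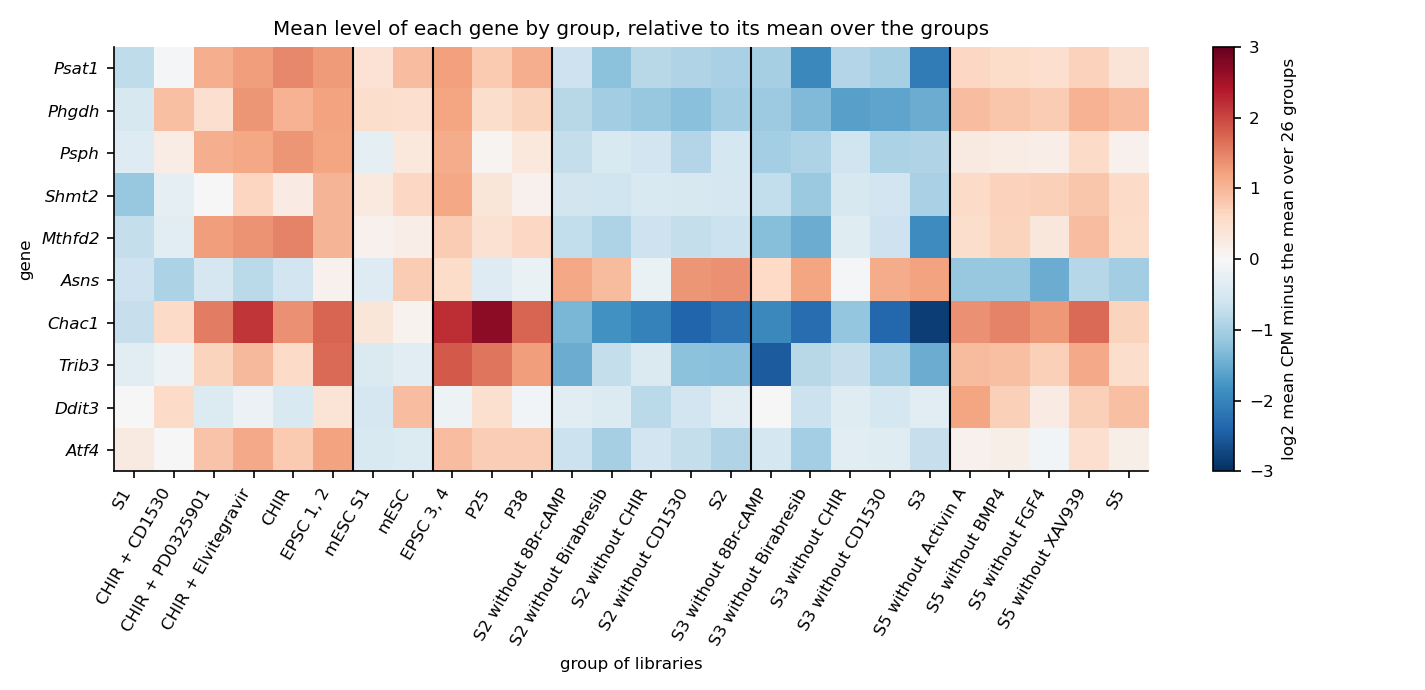
Mean level of each gene (rows) in each of 26 groups of libraries (columns), as log2 of the mean CPM minus the gene's mean over the groups; black lines separate the first set, mESCs, EPSCs with P25 and P38, S2, S3 and S5. In the S2 and S3 columns Asns is above its mean except where CHIR was left out, and the other 9 rows are below theirs except Ddit3 at S3 without 8Br-cAMP (14 CPM), which is at its mean.

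Compared per kilobase of merged exon, which allows genes to be set beside each other, Asns and Atf4 were the most abundant in the starting EPSCs. In EPSC libraries 1 and 2 the mean level per kilobase was 262 CPM for Asns, 252 CPM for Atf4, 140 CPM for Psat1, 134 CPM for Phgdh and 98.4 CPM for Shmt2. Mthfd2 had 48.2 CPM per kilobase and Trib3 34.3 CPM. Psph had 19, Chac1 17.3 and Ddit3 10.7 CPM per kilobase. At S3 the level of Asns reached 559 CPM per kilobase while that of Psat1 was 13.4 CPM per kilobase.

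**Figure D2:**
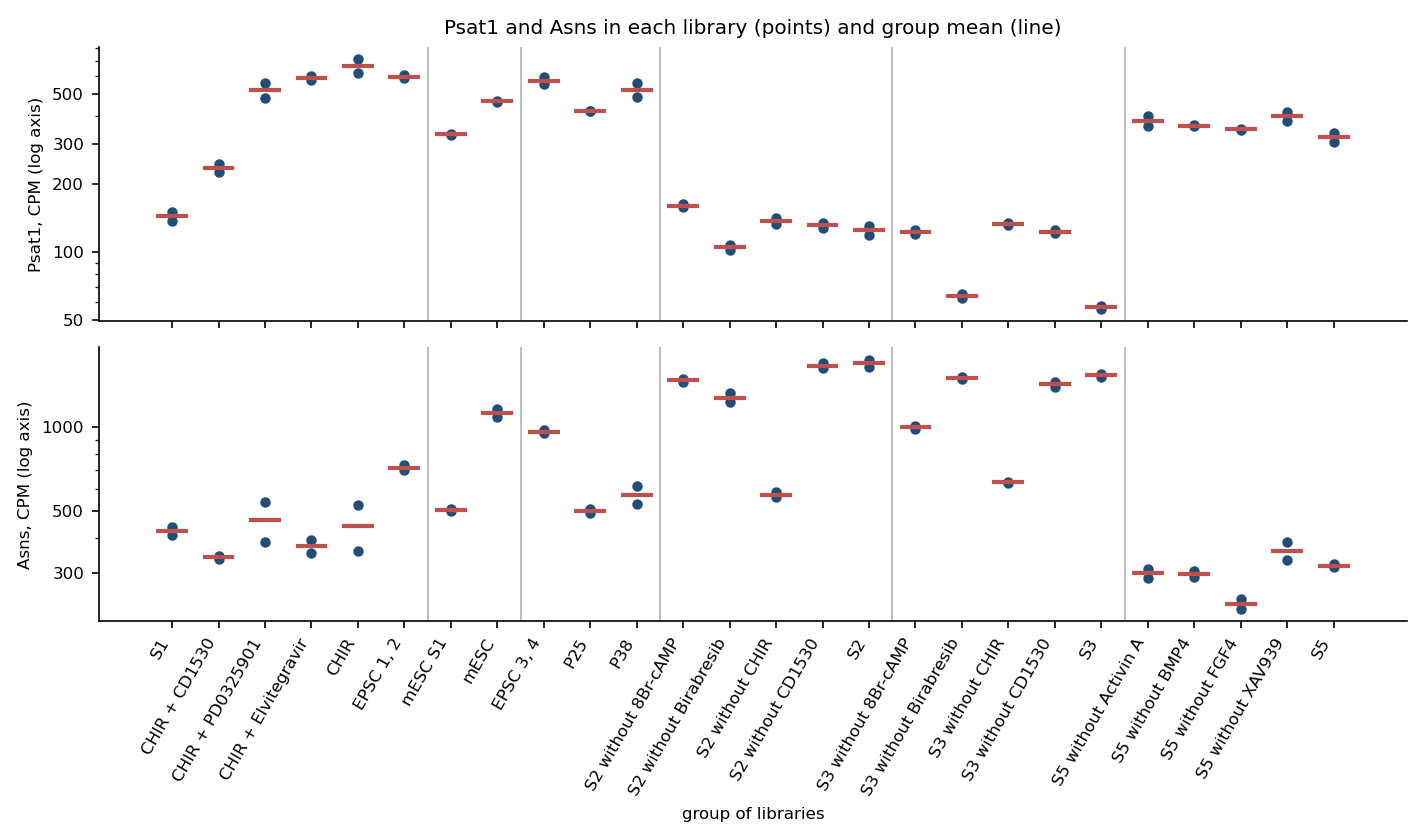
CPM of Psat1 (top) and Asns (bottom) in each library (points) of each group, with the group mean (line), on log axes. Psat1 lies near 57 CPM in S3 and between 120 and 134 CPM at S3 without 8Br-cAMP, CHIR or CD1530, while Asns lies at 984 CPM or more at S2 and S3 except without CHIR.

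After 2 days of totipotency medium, EPSCs held less messenger RNA of the whole serine and folate group. Psat1 had 150 and 138 CPM in the S1 libraries, against 604 and 589 CPM in EPSC libraries 1 and 2. The S1 libraries lay far below both EPSC libraries, and the log2 fold change was -2.05 (SE 0.09, adjusted p = 3.3e-21). Shmt2 had 70.4 and 67.2 CPM in S1, against 302 and 311 CPM in EPSCs, a log2 fold change of -2.15 (SE 0.12). Phgdh fell to 104 ± 5.1 CPM in S1, against 334 ± 5.3 CPM in EPSCs. Psph fell to 27.8 ± 2.4 CPM in S1, against 82.3 ± 6 CPM in EPSCs, and Mthfd2 fell to 50.8 ± 3.8 CPM in S1, against 168 ± 0.51 CPM in EPSCs. Each of these 5 enzymes thus fell by a log2 fold change between -2.15 and -1.57.

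All 10 members lay lower in S1 than in EPSCs with an adjusted p below 0.05. An unadjusted p below 0.05 was reached by all 10, and by 12989 of the 25056 tested genes. Among the stress genes, Chac1 and Trib3 also passed the fold threshold. Chac1 had 5.71 and 4.78 CPM in S1, against 28.2 and 28.7 CPM in EPSCs, a log2 fold change of -2.44 (SE 0.23, adjusted p = 3.0e-11). Trib3 had 19.1 and 17 CPM in S1, against 73.3 and 72.2 CPM in EPSCs, a log2 fold change of -2.01 (SE 0.16, adjusted p = 4.3e-13). Both fell. Atf4 had 329 and 291 CPM in S1, against 585 and 606 CPM in EPSCs, and its log2 fold change of -0.94 (SE 0.19, adjusted p = 9.3e-05) stayed just short of the fold threshold, which it passed (-1.03) without S1 library 1. Asns had 440 and 413 CPM in S1, against 730 and 702 CPM in EPSCs, a log2 fold change of -0.75 (SE 0.11). Ddit3 had 13.3 and 14 CPM in S1, against 17.8 and 18.8 CPM in EPSCs, a log2 fold change of -0.42 (SE 0.17). Of the 10 genes 7 fell and none rose, where 27.8% of all tested genes passed in either direction and 9.16% fell. Their median log2 fold change was -1.70, against 0.00 over all tested genes. The pluripotency markers moved with this, at 165 to 167 CPM in S1 against 1610 to 1630 CPM in EPSCs, and so did the 2-cell-like sums given above. Trophectoderm markers (Cdx2, Gata3, Krt8) summed to 548 to 722 CPM in S1, against 10.7 to 11.3 CPM in EPSCs. Their part in the result was not tested.

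Other genes of the pathway fell too. Of 95 genes in 7 lists of serine, amino acid and stress genes, 41 fell and 5 rose, with a median of -0.84. Of all tested genes 27.8% passed and 9.16% fell. The lists were chosen with earlier results of these data known, so their falls are no independent support. The falls took in 13 of 20 cytosolic aminoacyl-tRNA synthetases, which load amino acids onto tRNA, 8 of 13 further serine, glycine and folate enzymes, 7 of 10 other amino acid enzymes and 6 of 10 amino acid transporters. The 15 chaperones and other unfolded protein response genes of the endoplasmic reticulum had a median of 0.04. Slc7a3, a transporter of cationic amino acids, had 21.3 ± 3.8 CPM in S1, against 266 ± 17 CPM in EPSCs (log2 fold change -3.64, SE 0.13). Gldc, a subunit of the glycine cleavage system, had 63.4 ± 0.54 CPM in S1, against 477 ± 6.2 CPM in EPSCs (log2 fold change -2.91, SE 0.09). Cbs, which joins serine to homocysteine, fell to 9.42 ± 0.19 CPM in S1, against 94.2 ± 0.78 CPM in EPSCs.

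CHIR alone was first set against the starting EPSCs, and the arms with a further compound against CHIR alone, with no test between those arms. In CHIR alone, Psat1 had 616 and 710 CPM, against 604 and 589 CPM in EPSC libraries 1 and 2. Mthfd2 had 222 and 243 CPM in CHIR, against 168 and 168 CPM in EPSCs, a log2 fold change of 0.47 (SE 0.09) under the fold threshold. Only Trib3 passed, at 41.2 and 26 CPM in CHIR against 73.3 and 72.2 CPM in EPSCs (log2 fold change -1.11, SE 0.16, adjusted p = 5.1e-07), where 18.7% of all tested genes passed and 6.99% fell. Without the libraries numbered 2 of both arms its log2 fold change was -0.81, and no member passed. Without CHIR library 1, Ddit3 (-1.21), Shmt2 (-1.17) and Atf4 (-1.15) passed as well, so that 4 members fell. The median over the 10 genes was -0.40, against 0.00 over all tested genes.

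With CD1530 beside CHIR, 3 enzymes fell and Ddit3 rose. Mthfd2 had 66 and 64.7 CPM with CD1530, against 222 and 243 CPM with CHIR alone (log2 fold change -1.83, SE 0.09, adjusted p = 3.2e-18). Psat1 had 226 and 245 CPM with CD1530, against 616 and 710 CPM with CHIR alone (log2 fold change -1.49, SE 0.09, adjusted p = 8.0e-17). In both genes the groups lay well apart. Psph had 40.7 and 43.7 CPM with CD1530, against 72 and 110 CPM with CHIR alone (log2 fold change -1.11, SE 0.15). Phgdh, the enzyme that opens the same pathway, had 268 and 274 CPM with CD1530, against 364 and 235 CPM with CHIR alone, and the groups overlapped. Ddit3 had 20.2 and 21.3 CPM with CD1530, against 12.2 and 8.16 CPM with CHIR alone (log2 fold change 1.01, SE 0.17, adjusted p = 8.5e-06). Here 16.7% of all tested genes passed, 9.74% rising and 6.91% falling, and the median over the 10 genes was -0.75, against 0.00 over all tested genes.

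Without the libraries numbered 2 of both arms, Psat1 (log2 fold change -1.39) and Mthfd2 (-1.76) still fell with CD1530 against CHIR. Psph (-0.77) and Ddit3 (0.76) then stayed under the fold threshold, as Ddit3 also did (0.98) without library 2 of CHIR with CD1530, while Atf4 (-1.24, adjusted p = 1.7e-13), Chac1 (-1.10) and Trib3 (-1.02) passed it. Atf4 itself had 253 and 264 CPM with CD1530, against 611 and 277 CPM with CHIR alone, with a log2 fold change of -0.78 (SE 0.19) over both libraries. Markers of extraembryonic endoderm (Gata4, Gata6, Sox17) summed to 448 to 462 CPM with CD1530, against 23.7 to 31.5 CPM with CHIR alone, and their part in the result was not tested. Of the 95 pathway genes 8 rose and 10 fell with CD1530, where 16.7% of all tested genes passed, 9.74% rising and 6.91% falling. The number of pathway genes that passed is near the share over all genes. Aldh1l1, a cytosolic folate enzyme, had 28.7 ± 0.61 CPM with CD1530, against 3.48 ± 1.1 CPM with CHIR alone. Slc43a1, a transporter of large neutral amino acids, had 6.18 ± 0.23 CPM with CD1530, against 29.2 ± 5.3 CPM with CHIR alone.

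Elvitegravir beside CHIR left all 10 genes short of the thresholds in edgeR's test and in DESeq2's Wald test. In edgeR's test 5 of them had an unadjusted p under 0.05, as had 4529 of the 25056 tested genes. The largest log2 fold change was that of Chac1, with 34.8 and 39.7 CPM with Elvitegravir against 27.2 and 16.6 CPM with CHIR alone (0.76, SE 0.22, adjusted p = 0.082). Here 0.00798% of all tested genes passed. The median over the 10 genes was 0.27, against 0.00 over all tested genes. Set against CHIR library 2 alone, Chac1 (log2 fold change 1.21) and Atf4 (1.06) passed, and set against CHIR library 1 alone no member did. PD0325901 beside CHIR also left 0 of 10 past the thresholds in both tests, where 4.51% of all tested genes passed. In edgeR's test 3 members had an unadjusted p under 0.05, as had 5152 of the 25056 tested genes. Phgdh had 226 and 187 CPM with PD0325901, against 364 and 235 CPM with CHIR alone (log2 fold change -0.54, SE 0.13, adjusted p = 0.0029), and Psat1 had 479 and 561 CPM with PD0325901, against 616 and 710 CPM with CHIR alone (log2 fold change -0.35, SE 0.08, adjusted p = 0.0032). Without the libraries numbered 2 of both arms the log2 fold change of Phgdh was -0.69, and again no member passed. The median over the 10 genes was -0.09, against 0.00 over all tested genes.

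**Figure D3:**
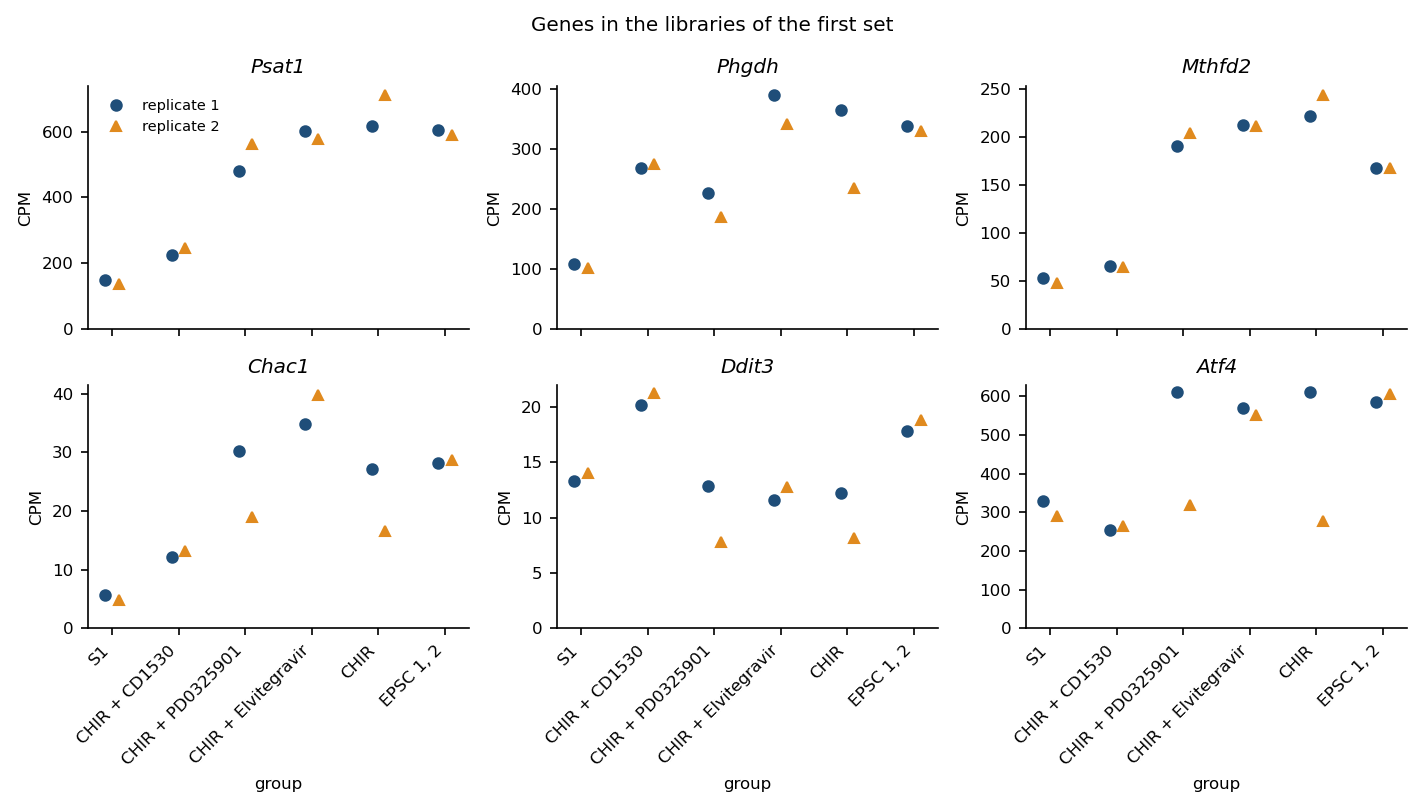
CPM of 6 genes in each library of the first set, with replicate 1 as circles and replicate 2 as triangles. Psat1 and Mthfd2 are low in S1 and with CD1530, and the replicates of CHIR and of CHIR with PD0325901 lie far apart for Atf4.

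S1 cells held less of several members than the CHIR arms did. Against CHIR with CD1530, Phgdh had 108 and 101 CPM in S1, against 268 and 274 CPM with CHIR and CD1530 (log2 fold change -1.37, SE 0.13, adjusted p = 6.1e-11). Chac1 had 5.24 ± 0.66 CPM in S1, against 12.7 ± 0.71 CPM with CHIR and CD1530 (log2 fold change -1.27, SE 0.23). These 2 fell and the other 8 did not pass, where 11.3% of all tested genes passed and 3.51% fell, and the median was -0.60 against 0.00 over all tested genes. Against CHIR with PD0325901, 5 of 10 fell in S1, where 16.7% of all tested genes passed and 5.94% fell, with a median of -1.07 against 0.00. They were Chac1 (log2 fold change -2.24, SE 0.23), Mthfd2 (-1.96, SE 0.09), Psat1 (-1.85, SE 0.09), Psph (-1.46, SE 0.15) and Shmt2 (-1.16, SE 0.12). Without the libraries numbered 2 of both arms Phgdh (-1.13) and Trib3 (-1.21) fell as well, and without library 1 of CHIR with PD0325901 Shmt2 (-0.87) did not pass. These comparisons share the S1 libraries.

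In mESCs given the same medium for 2 days, Asns and Ddit3 fell and the other 8 members did not pass. Psat1 had 334 and 329 CPM in mESC S1, against 467 and 460 CPM in mESCs, a log2 fold change of -0.48 (SE 0.08). Phgdh had 212 and 206 CPM in mESC S1, against 221 and 193 CPM in mESCs, and Mthfd2 had 90.3 and 92.1 CPM in mESC S1, against 97.4 and 91.5 CPM in mESCs. The groups overlapped for both. Asns fell, with 510 and 500 CPM in mESC S1 against 1160 and 1090 CPM in mESCs (log2 fold change -1.16, SE 0.12, adjusted p = 1.4e-10). Ddit3 fell as well, with 9.08 and 10.5 CPM in mESC S1 against 27.6 and 25 CPM in mESCs (log2 fold change -1.43, SE 0.17, adjusted p = 1.1e-08). These 2 of 10 passed, near the share of 22.5% over all tested genes, where 8.26% fell. The median was -0.22 against 0.04 over all tested genes. An adjusted p below 0.05 was reached by 5 of 10. An unadjusted p below 0.05 was also reached by 5, and by 12066 of the 25056 tested genes. Of the 95 pathway genes 5 rose and 14 fell. Cth, which makes cysteine, had 17 ± 0.95 CPM in mESC S1, against 153 ± 1.9 CPM in mESCs, and Cbs had 18.8 ± 0.82 CPM in mESC S1, against 189 ± 8.8 CPM in mESCs. Fibroblast markers (Col1a1, Col1a2, Col3a1, Thy1, Postn) summed to 983 to 989 CPM in mESC S1, against 2100 to 2210 CPM in mESCs, and their part in the result was not tested.

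The difference between the responses was itself tested. The response of mESCs (mESC S1 over mESCs) minus that of EPSCs (S1 over EPSC libraries 1 and 2) was above 0 and passed for 6 genes and below 0 for Ddit3, where 18.7% of all tested genes passed, 8.7% above 0 and 9.97% below. It was 2.69 (SE 0.33) for Chac1, 1.89 (SE 0.23) for Trib3, 1.82 (SE 0.17) for Shmt2, 1.69 (SE 0.18) for Phgdh, 1.67 (SE 0.13) for Mthfd2 and 1.57 (SE 0.12) for Psat1. For Ddit3 it was -1.01 (SE 0.24, adjusted p = 8.7e-04), from log2 fold changes of -1.43 in mESCs and -0.42 in EPSCs, and it lay between -0.96 and -0.91, short of the threshold, without S1 library 2, mESC library 1 or mESC S1 library 1. The median over the 10 genes was 1.62, against -0.04 over all tested genes. The mESC libraries belong to the second set and the S1 and EPSC libraries to the first, so the cell line and the set cannot be told apart.

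Before totipotency medium, Trib3, Chac1 and Atf4 were lower and Ddit3 was higher in mESCs than in EPSCs. Trib3 had 18.2 and 17.8 CPM in mESCs, against 82.7 and 77.1 CPM in EPSC libraries 3 and 4 (log2 fold change -2.15, SE 0.17). Chac1 had 10.4 and 7.78 CPM in mESCs, against 42.2 and 36.4 CPM in EPSCs (log2 fold change -2.12, SE 0.24). Atf4 had 198 and 190 CPM in mESCs, against 509 and 470 CPM in EPSCs (log2 fold change -1.34, SE 0.20), and Ddit3 had 27.6 and 25 CPM in mESCs, against 13.2 and 11.6 CPM in EPSCs (log2 fold change 1.08, SE 0.18). None of these groups overlapped. The 5 enzymes of serine and folate metabolism had log2 fold changes from -0.81 to -0.31, all under the fold threshold. In all 4 of 10 passed, where 19.6% of all tested genes did, 9.66% higher and 9.94% lower, and the median was -0.62 against 0.00. Without EPSC library 4 Ddit3 (0.99) did not pass. Fibroblast markers summed to 2100 to 2210 CPM in mESCs, against 621 to 622 CPM in EPSC libraries 3 and 4, and their part was not tested. The line, the medium (2i/L against LCDM) and the counting differ together between these groups and cannot be told apart. Mates of a read pair seem to have been counted separately in mESCs and not in EPSC libraries 3 and 4. Halving the counts of such libraries changed no member's call in this comparison. Slc7a11, the cystine importer, had 0.42 ± 0.055 CPM in mESCs, against 37.6 ± 0.18 CPM in EPSCs.

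**Figure D4:**
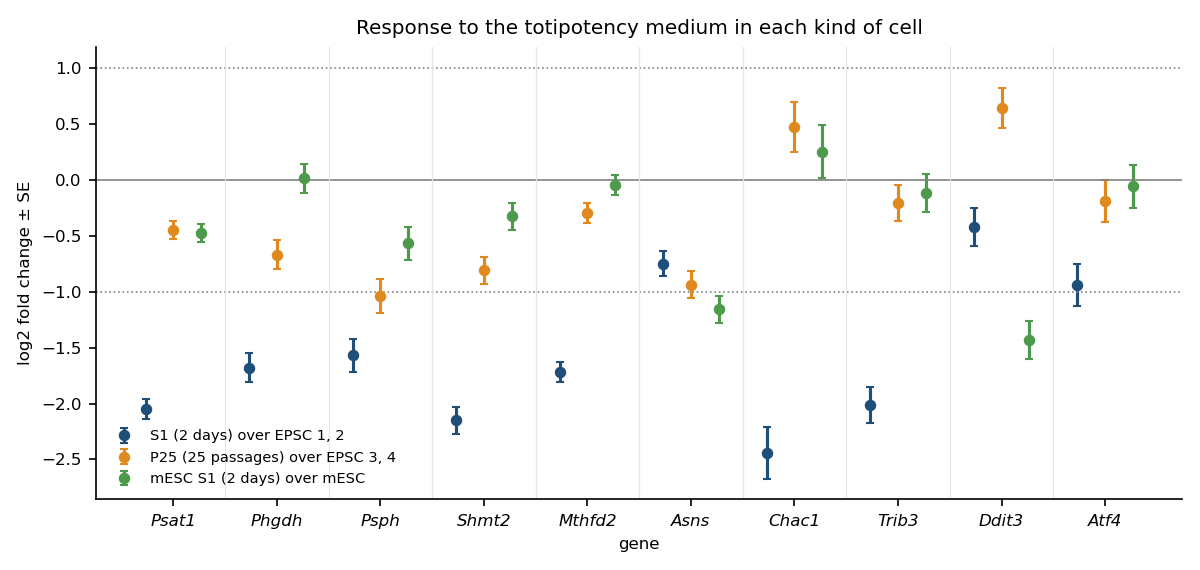
Log2 fold change ± SE of each gene after totipotency medium: S1 over EPSC libraries 1 and 2, P25 over EPSC libraries 3 and 4, and mESC S1 over mESCs. Dotted lines mark a log2 fold change of 1 in either direction; Psat1 lies at -2.05 in S1, -0.45 in P25 and -0.48 in mESC S1.

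In EPSCs kept in totipotency medium for 25 passages, 8 of the 10 genes lay below the starting cells, mostly with log2 fold changes under the threshold. An adjusted p below 0.05 was reached by 7 of 10. An unadjusted p below 0.05 was reached by 8, and by 11200 of the 25056 tested genes. Psat1 had 422 and 420 CPM in P25, against 594 and 552 CPM in EPSC libraries 3 and 4, a log2 fold change of -0.45 (SE 0.08). Psph fell, with 38.9 and 37.8 CPM in P25 against 80.6 and 76.7 CPM in EPSCs (log2 fold change -1.04, SE 0.15, adjusted p = 5.0e-07). Asns had 508 and 493 CPM in P25, against 977 and 949 CPM in EPSCs, a log2 fold change of -0.94 (SE 0.12) just under the threshold. Chac1 had 56.3 and 53 CPM in P25, against 42.2 and 36.4 CPM in EPSCs (log2 fold change 0.47, SE 0.22, adjusted p = 0.097). Psph was the 1 member of 10 that passed, where 18.7% of all tested genes did and 5.5% fell, and the median was -0.37 against 0.02 over all tested genes. Without EPSC library 3 Psph lay just short of the fold threshold and did not pass. Fibroblast markers summed to 1240 to 1250 CPM in P25, against 621 to 622 CPM in EPSCs, and their part was not tested.

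The response at 25 passages differed from that at 2 days. The P25 response minus the S1 response was above 0 and passed for 7 genes, where 9.3% of all tested genes passed and 4.76% did so above 0. It was 2.91 (SE 0.32) for Chac1, 1.80 (SE 0.23) for Trib3, 1.60 (SE 0.12) for Psat1, 1.43 (SE 0.13) for Mthfd2 and 1.35 (SE 0.17) for Shmt2. For Ddit3 it was 1.06 (SE 0.25) and for Phgdh 1.01 (SE 0.18), both close to the threshold. Phgdh lay between 0.95 and 1.00 and did not pass without S1 library 2, EPSC library 1, EPSC library 4 or P25 library 2, and Ddit3 (0.97 and 0.98) did not pass without EPSC library 4 or P25 library 1. The median over the 10 genes was 1.20, against -0.01 over all tested genes. The times and the sets go together here and cannot be told apart, and each response was taken against EPSC libraries of its own set. Between those EPSC pairs, the ratio of libraries 3 and 4 to libraries 1 and 2 ran from 0.681 for Ddit3 to 1.38 for Chac1, and was 0.961 for Psat1.

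From passage 25 to passage 38 no member passed in edgeR's test or in DESeq2's, where 0.339% of all tested genes passed. In edgeR's test 4 members had an unadjusted p under 0.05, as had 2977 of the 25056 tested genes. Chac1 had 31.4 and 25.7 CPM in P38, against 56.3 and 53 CPM in P25 (log2 fold change -0.94, SE 0.23, adjusted p = 0.015). Psat1 had 558 and 487 CPM in P38, against 422 and 420 CPM in P25 (log2 fold change 0.31, SE 0.08, adjusted p = 0.035). The median over the 10 genes was 0.07, against -0.00 over all tested genes. Atf3, a stress factor outside the 10 genes, fell to 10.9 ± 0.099 CPM in P38, against 23.9 ± 0.84 CPM in P25.

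Between P25 cells and S2 aggregates, Asns rose while 6 other members fell. Asns had 1740 and 1640 CPM in S2, against 508 and 493 CPM in P25 (log2 fold change 1.75, SE 0.12, adjusted p = 9.5e-15). Chac1 had 1.83 and 1.82 CPM in S2, against 56.3 and 53 CPM in P25, a 29.9-fold lower level (log2 fold change -4.90, SE 0.28, adjusted p = 1.3e-16). Trib3 had 9.42 and 9.33 CPM in S2, against 69.7 and 68.1 CPM in P25, a 7.35-fold lower level. Atf4 had 139 and 133 CPM in S2, against 427 and 430 CPM in P25 (log2 fold change -1.65, SE 0.20). All of these groups lay apart.

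Psat1, Phgdh and Mthfd2 fell as well. Psat1 had 131 and 119 CPM in S2, against 422 and 420 CPM in P25 (log2 fold change -1.75, SE 0.09), and Phgdh had 70.4 and 70.7 CPM in S2, against 206 and 211 CPM in P25 (log2 fold change -1.56, SE 0.13). Mthfd2 fell by 1.10 on the log2 scale (SE 0.09). Shmt2, Psph and Ddit3 had log2 fold changes of -0.87, -0.62 and -0.84, under the fold threshold. In all 1 gene rose and 6 fell, where 16.1% of all tested genes passed, 4.69% rising and 11.4% falling, and the median was -1.33 against 0.00 over all tested genes. Of the 95 pathway genes 4 rose and 19 fell, among them 8 of 16 stress factors and feedback genes while the 20 tRNA synthetases had a median of -0.35. Fibroblast markers summed to 215 to 225 CPM in S2, against 1240 to 1250 CPM in P25, and 2-cell-like markers to 59.8 to 68.1 CPM in S2, against 167 to 175 CPM in P25. Trophectoderm markers summed to 147 to 158 CPM in S2, against 493 to 519 CPM in P25. Krt8 and Gata3 lay lower in S2, while Cdx2 went the other way, with 22.4 ± 1.2 CPM against 4.16 ± 0.88 CPM in P25. The part of these markers in the result was not tested. Stc2, a secreted stress protein, had 2.38 ± 0.32 CPM in S2, against 38.5 ± 1.6 CPM in P25. P25 was set against S2 because both belong to the second set. Mates of a read pair seem to have been counted separately in S2 and not in P25, and halving the counts of such libraries changed no member's call here.

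The second day in 4C-64C medium lowered Psat1 and Mthfd2 further. Psat1 had 58 and 56.4 CPM in S3, against 131 and 119 CPM in S2 (log2 fold change -1.13, SE 0.09, adjusted p = 5.0e-12). Mthfd2 had 23.4 and 21.4 CPM in S3, against 55.3 and 50.8 CPM in S2 (log2 fold change -1.24, SE 0.09, adjusted p = 4.7e-12). Asns stayed high, with 1550 and 1510 CPM in S3 against 1740 and 1640 CPM in S2 (log2 fold change -0.14, SE 0.11). Atf4 had 162 and 155 CPM in S3, against 139 and 133 CPM in S2 (log2 fold change 0.22, SE 0.19, adjusted p = 0.5). These 2 of 10 fell, where 5.28% of all tested genes passed and 3.37% fell, and the median was -0.40 against 0.00. The share of counts from mitochondrial genes was 0.903% and 0.775% in the S3 libraries, against 3.14% and 2.86% in the S2 libraries, and its part in the result was not tested.

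At S5 the pattern turned round. Psat1 had 337 and 308 CPM in S5, against 58 and 56.4 CPM in S3 (log2 fold change 2.49, SE 0.09, adjusted p = 4.1e-23). Mthfd2 had 128 and 116 CPM in S5, against 23.4 and 21.4 CPM in S3 (log2 fold change 2.45, SE 0.10), and Phgdh had 255 and 296 CPM in S5, against 51.7 and 51.5 CPM in S3 (log2 fold change 2.42, SE 0.13). Every enzyme of serine and folate metabolism among the members rose. Asns fell, with 317 and 323 CPM in S5 against 1550 and 1510 CPM in S3 (log2 fold change -2.26, SE 0.12, adjusted p = 5.2e-18). For all of these the groups lay far apart.

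Chac1 had 17.9 and 9.12 CPM in S5, against 1.07 and 1.3 CPM in S3 (log2 fold change 3.51, SE 0.28), and the S5 libraries differed between themselves. Trib3 rose by 2.01 (SE 0.17), Shmt2 by 1.55 (SE 0.12), Ddit3 by 1.23 (SE 0.17) and Psph by 1.03 (SE 0.15) on the log2 scale. Atf4 had 290 and 288 CPM in S5, against 162 and 155 CPM in S3 (log2 fold change 0.86, SE 0.19), under the fold threshold. In all 8 of 10 rose and 1 fell, where 22.6% of all tested genes passed, 14.1% rising and 8.5% falling, and the median was 1.78 against 0.00. Without S3 library 1 or without S5 library 1 Psph (log2 fold changes 1.00 and 0.98) did not pass.

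Of the 95 pathway genes 31 rose and 2 fell at S5, where 22.6% of all tested genes passed, 14.1% rising and 8.5% falling. Stc2 had 78.3 ± 3 CPM in S5, against 2.1 ± 0.31 CPM in S3 (log2 fold change 5.22, SE 0.24). Gldc had 475 ± 65 CPM in S5, against 35.3 ± 2 CPM in S3 (log2 fold change 3.75, SE 0.10), and Aldh1l1 had 101 ± 25 CPM in S5, against 9.06 ± 1.1 CPM in S3. Nupr1, a stress-induced chromatin protein, rose to 21.2 ± 1.4 CPM in S5, against 1.41 ± 0.23 CPM in S3. The risen genes included 8 of 16 stress factors and feedback genes, 6 of 10 transporters and 5 of 13 serine, glycine and folate enzymes. They also included, nearer the share over all genes, 4 of 20 tRNA synthetases and 4 of 15 chaperones and unfolded protein response genes. Extraembryonic endoderm markers summed to 320 to 436 CPM in S5, against 81 to 82.8 CPM in S3, and pluripotency markers to 561 to 656 CPM in S5, against 1300 to 1390 CPM in S3. Nanog, Zfp42 and Esrrb lay lower in S5, but Pou5f1 did not, with 277 ± 21 CPM against 246 ± 8.1 CPM in S3. The part of these markers in the result was not tested.

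Asns fell in the aggregates when CHIR was left out. At S2 without CHIR, Asns had 561 and 586 CPM, against 1740 and 1640 CPM in the full S2 medium (log2 fold change -1.56, SE 0.12, adjusted p = 8.3e-13). At S3 without CHIR it had 632 and 638 CPM, against 1550 and 1510 CPM in the full S3 medium (log2 fold change -1.27, SE 0.12, adjusted p = 5.4e-11). Trophectoderm markers at S2 summed to 383 to 392 CPM without CHIR, against 147 to 158 CPM in S2. Krt8 alone had 372 ± 6.3 CPM without CHIR, against 128 ± 9.3 CPM in S2, and Gata3 also lay higher. Cdx2 went the other way, with 3.99 ± 1.1 CPM without CHIR against 22.4 ± 1.2 CPM in S2. Extraembryonic endoderm markers summed to 57.8 to 61.9 CPM without CHIR, against 25.4 to 28.8 CPM in S2. The part of these markers was not tested. Both stages showed a fall with no overlap, and the fall at S3 minus that at S2 was 0.29 (SE 0.16, adjusted p = 0.36). Without each of the other agents Asns had group means from 1270 to 1660 CPM at S2 and from 997 to 1500 CPM at S3, and did not pass. The lowest of these was S3 without 8Br-cAMP, with 984 and 1010 CPM (log2 fold change -0.62, SE 0.11, adjusted p = 8.7e-05). In the first set, Asns had 360 and 527 CPM with CHIR, against 730 and 702 CPM in EPSC libraries 1 and 2 (log2 fold change -0.69, SE 0.12). That value compares whole media and cannot be read as the effect of adding CHIR.

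At S2 no other member passed when an agent was left out. Without CHIR, Asns was the 1 member of 10 past the thresholds, where 5.07% of all tested genes passed and 2.22% fell, and the median was 0.04 against 0.00 over all tested genes. Trib3 had 16.9 and 16.6 CPM without CHIR, against 9.42 and 9.33 CPM in S2 (log2 fold change 0.84, SE 0.17, adjusted p = 4.9e-04). Without 8Br-cAMP, Birabresib or CD1530, 0 of 10 passed in edgeR's test and in DESeq2's, and 1.92%, 2.98% and 2.33% of all tested genes passed. An unadjusted p under 0.05 was reached by 2 members without 8Br-cAMP, 4 without Birabresib and 1 without CD1530. Of the 25056 tested genes 4270, 5696 and 4543 reached it in turn. The medians over the 10 genes were -0.01, -0.07 and -0.04 in that order of agents, against 0.00, 0.02 and -0.01 over all tested genes.

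At S3 Psat1 and Mthfd2 rose when CHIR or CD1530 was left out, and Psat1 also without 8Br-cAMP. Psat1 had 132 and 134 CPM without CHIR, 125 and 121 CPM without CD1530 and 125 and 120 CPM without 8Br-cAMP, against 58 and 56.4 CPM in the full S3 medium. Its log2 fold changes were 1.21 (SE 0.09), 1.10 (SE 0.09) and 1.10 (SE 0.09). Without Birabresib it had 63 and 65.1 CPM (log2 fold change 0.16, SE 0.09, adjusted p = 0.2). Mthfd2 had 64.1 and 65.1 CPM without CHIR (log2 fold change 1.53, SE 0.09), 56.1 and 51.6 CPM without CD1530 (1.27, SE 0.09), 35.1 and 33.2 CPM without 8Br-cAMP (0.61, SE 0.09) and 29.4 and 29.9 CPM without Birabresib (0.40, SE 0.09), against 23.4 and 21.4 CPM in the full medium. In every group without an agent Mthfd2 lay above both full-medium libraries, and only the first 2 of these 4 groups passed. At S2, which had gone 1 day in the medium, Psat1 had 125 ± 9.1 CPM and Mthfd2 53.1 ± 3.2 CPM.

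The remaining calls at S3 were few. Chac1 had 4.12 and 3.48 CPM without CHIR, against 1.07 and 1.3 CPM in S3 (log2 fold change 1.68, SE 0.30, adjusted p = 3.9e-05). Trib3 had 3.76 and 4.18 CPM without 8Br-cAMP, against 8.16 and 7.99 CPM in S3 (log2 fold change -1.03, SE 0.19, adjusted p = 6.9e-05), and 14 and 11.1 CPM without Birabresib (log2 fold change 0.63, SE 0.17). Without replicate 1 of the group lacking 8Br-cAMP, Trib3 (log2 fold change -0.95) did not pass and Chac1 (1.17) did. Members passed in number 4 without CHIR, 2 without 8Br-cAMP, 2 without CD1530 and 0 without Birabresib, where 9.16%, 6.63%, 5.79% and 6.21% of all tested genes passed. Of all tested genes 5.04% rose and 4.11% fell without CHIR, 2.83% rose and 3.8% fell without 8Br-cAMP, and 1.97% rose without CD1530. Without Birabresib, DESeq2 also called none, and 2 members had an unadjusted p under 0.05, as had 7248 of the 25056 tested genes. The medians over the 10 genes were 0.43, 0.29, 0.36 and 0.06 in the same order, against 0.00, 0.00, -0.04 and 0.04 over all tested genes.

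All S3 comparisons share the 2 libraries of the full medium, which stood apart in the share of mitochondrial counts at 0.903% and 0.775%, while the groups that lacked an agent had 1.89% to 3.43%. The part of this in the result was not tested. Trophectoderm markers summed to 150 to 163 CPM without 8Br-cAMP, 438 to 458 CPM without Birabresib, 626 to 636 CPM without CHIR and 470 to 475 CPM without CD1530, against 215 to 233 CPM in full S3, and were not tested either. Cdx2 moved against these sums without 8Br-cAMP (99.5 CPM) and without CHIR (2.01 CPM), from 18.6 CPM in full S3, while Krt8 and Gata3 moved with them. Without Birabresib Cdx2 had 18.1 CPM, and without CD1530 37.8 CPM. The effect of an omission at S3 minus that at S2 was compared in 4 contrasts added after the data were seen. Without CHIR it was 1.50 (SE 0.13, adjusted p = 8.9e-10) for Mthfd2, 1.08 (SE 0.12, adjusted p = 1.4e-07) for Psat1 and 1.49 (SE 0.44, adjusted p = 0.034) for Chac1, where 2.43% of all tested genes passed and 1.28% did so above 0. Without CD1530 it was 1.33 (SE 0.13) for Mthfd2 and 1.03 (SE 0.12) for Psat1 (0.96, under the threshold, without S2 library 1), where 0.962% of all tested genes passed and 0.543% did so above 0. Without 8Br-cAMP (0.74, SE 0.12) and without Birabresib (0.41, SE 0.12) that of Psat1 was under the fold threshold. In these 2 contrasts 0 of 10 passed in either test, where 1.9% and 0.87% of all tested genes passed. An unadjusted p under 0.05 was reached by 4 and 3 members, and by 4533 and 3440 of the 25056 tested genes. The Chac1 value lost its call without any 1 of the 8 libraries of its contrast, and also with halved counts. Medians over the 10 genes were 0.38, 0.31, 0.13 and 0.13 for CHIR, CD1530, 8Br-cAMP and Birabresib, against 0.00, -0.00, 0.00 and 0.01 over all tested genes.

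**Figure D5:**
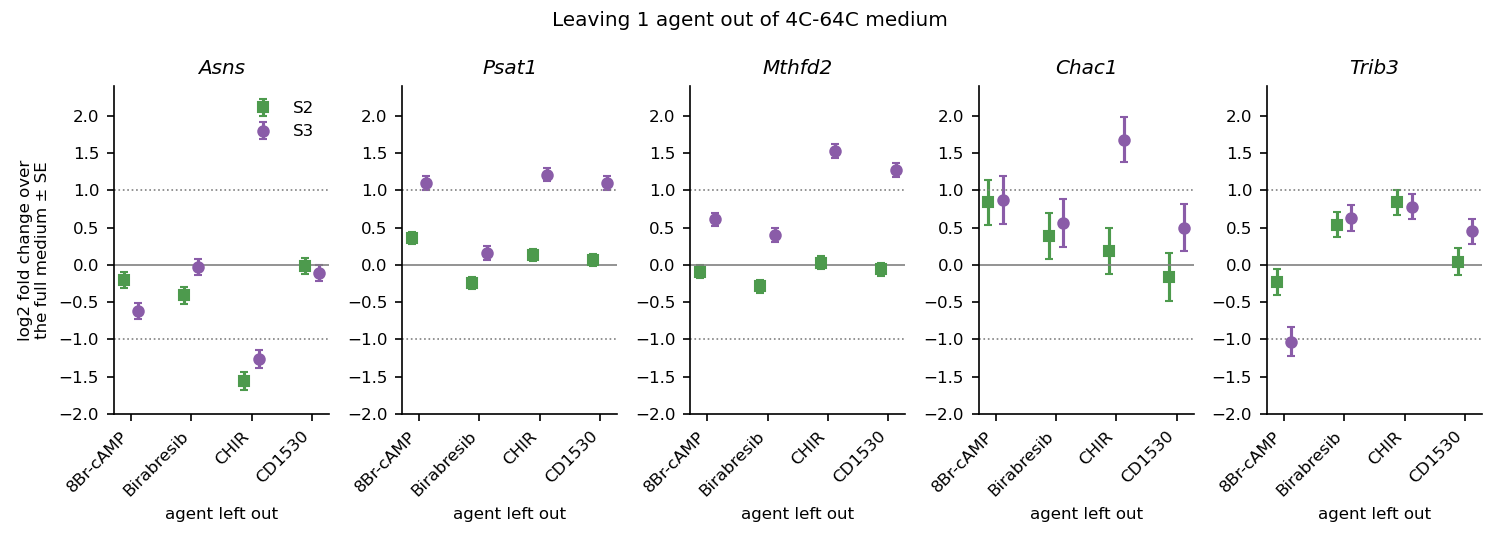
Log2 fold change ± SE of 5 genes when 1 agent was left out of 4C-64C medium, over the full medium of the same stage, at S2 (squares) and S3 (circles). Asns falls without CHIR at both stages, while Psat1 and Mthfd2 lie above 1 at S3 and near 0 at S2 without CHIR or CD1530.

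Among pathway genes outside the members, 4 of 95 rose and 2 fell without CHIR at S2, where 5.07% of all tested genes passed, and 5 rose and 3 fell at S3, where 9.16% did. These counts are near the share over all genes. Cebpb, a transcription factor that pairs with ATF4, had 24.7 ± 0.44 CPM without CHIR at S2, against 3.51 ± 0.18 CPM in S2 (log2 fold change 2.82, SE 0.26), and 24.9 ± 3.1 CPM without CHIR at S3, against 8.27 ± 0.67 CPM in S3 (log2 fold change 1.59, SE 0.24). Slc7a3 rose without CHIR at S3, to 72.8 ± 2.1 CPM against 23.3 ± 0.78 CPM, and without CD1530 at S2, to 56.2 ± 0.32 CPM against 22.5 ± 2.1 CPM in S2. Gldc rose without CD1530 at S3, to 103 ± 10 CPM against 35.3 ± 2 CPM in S3 (log2 fold change 1.55, SE 0.09). Pycr1, which makes proline, had 35.5 ± 0.32 CPM without 8Br-cAMP at S3, against 14.2 ± 1.1 CPM in S3.

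At S5, leaving out 1 agent of the peri-implantation medium took at most 1 member past the thresholds. Without XAV939, 9 of 10 members lay above the full S5 medium, and 4 had an adjusted p below 0.05. An unadjusted p below 0.05 was reached by 6, and by 5392 of the 25056 tested genes. Without XAV939, Chac1 had 28.2 and 26.9 CPM, against 17.9 and 9.12 CPM in S5 (log2 fold change 1.03, SE 0.23, adjusted p = 0.0021). It was the 1 member that passed, where 2.14% of all tested genes did and 1.13% rose, and it did not pass without S5 library 2 (log2 fold change 0.62, adjusted p = 0.21) or without library 1 of the group lacking XAV939 (0.99). Chac1 had 20.2 and 23.3 CPM without Activin A, 21.8 and 25.6 CPM without BMP4 and 18.8 and 22.7 CPM without FGF4, each above both S5 libraries and with log2 fold changes from 0.62 to 0.81. Without S5 library 1 all 3 passed (1.25, 1.38 and 1.19). Without Activin A, BMP4 and FGF4, 0 of 10 passed in edgeR's test and in DESeq2's, where 1.12%, 0.0559% and 4.65% of all tested genes passed. An unadjusted p under 0.05 was reached by 3, 2 and 4 members, and by 2991, 2241 and 6470 of the 25056 tested genes. Asns had 224 and 243 CPM without FGF4, against 317 and 323 CPM in S5 (log2 fold change -0.45, SE 0.11, adjusted p = 0.0046), and Ddit3 had 13.6 and 19.4 CPM without FGF4, against 23.4 and 28.1 CPM in S5 (log2 fold change -0.64, SE 0.17, adjusted p = 0.0064). The medians over the 10 genes were 0.06, 0.10, -0.04 and 0.32 without Activin A, BMP4, FGF4 and XAV939, against 0.01, 0.00, 0.02 and 0.01 over all tested genes.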

How the data were processed

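Whole-gene counts of 52 libraries, 2 per group and 4 for EPSCs, were deposited by the authors as 1 table of raw counts. Per the submitters' processing notes, Trimmomatic 0.39, STAR 2.7.10b, featureCounts 2.0.6 and mm10 were used; no source used here gives the annotation, the strand setting or how pairs were counted. In 46 libraries 66.8% to 80.5% of counts from 1 to 10 were even, as when both mates are counted, against 40.7% to 42% in the other 6 (EPSC libraries 3 and 4, P25, P38). Samples were grouped by the labels, and EPSC libraries were split by set, where a set is 1 run of sample accessions.

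One edgeR 4.0.16 quasi-likelihood model (R 4.3.3) with TMM factors was fitted over all libraries, after filterByExpr had kept 25056 genes. Benjamini-Hochberg adjustment ran over these, at 0.05 and a log2 fold change of 1. An SE is the log2 fold change divided by the root of F. Code was tested on simulated data. DESeq2 1.42.0, other size factors, no filter, pooled EPSCs, each family's own fit, a replicate block, halved counts and left-out libraries were tried. Replicate numbers were not used to pair samples in the main model. Members and lists were chosen with earlier results of these data known. Every called member is named, with at most 4 called list genes per comparison, those with the largest log2 fold change at 10 CPM or more in a group.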

Additional observations from a re-analysis of the deposited data

Results flagged for a closer look

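The following values are differences between responses that passed edgeR's test of the difference itself. The response of mESCs to 2 days of totipotency medium minus that of EPSCs was 2.69 for Chac1, 1.89 for Trib3, 1.82 for Shmt2, 1.69 for Phgdh, 1.67 for Mthfd2, 1.57 for Psat1 and -1.01 for Ddit3 on the log2 scale. The response of EPSCs at 25 passages minus that at 2 days was 2.91 for Chac1, 1.80 for Trib3, 1.60 for Psat1, 1.43 for Mthfd2, 1.35 for Shmt2, 1.06 for Ddit3 and 1.01 for Phgdh. The Ddit3 value of each difference, and the Phgdh value of the difference at 25 passages, lost their call when certain single libraries were left out. In both, the set of libraries goes with the groups and cannot be told apart from them.

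The effect of leaving CHIR out at S3 minus that at S2 was 1.50 for Mthfd2, 1.49 for Chac1 and 1.08 for Psat1, and the same difference for CD1530 was 1.33 for Mthfd2 and 1.03 for Psat1. The Chac1 value lost its call whichever library of its contrast was left out. The Psat1 value for CD1530 lost its call without S2 library 1. The S3 effects share the libraries of full S3 medium, whose share of mitochondrial counts was below that of the groups lacking an agent. Its part in these values was not tested.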

How the results depend on the processing

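No member reversed direction past a threshold. Outside left-out single libraries, 2013 of 2030 member values kept their call, 12 lost it and 5 gained it. With the libraries numbered 2 of CHIR and of CHIR with PD0325901 both left out, 0 members passed in CHIR against EPSCs, where 1 passed with them. This alternative and the halved counts were chosen after seeing the data. The replicate block changed 0 of 320 calls, with 7 members in S1 against EPSCs as without it. Of 47 pairs of same-numbered libraries within families, 2 had deviations correlated above 0.1 (median -0.00, highest 0.43). Replicate numbers were not used as pairs in the main model, and whether some same-numbered libraries shared handling was not tested. Phgdh in the response at P25 minus that at S1 was 0.97 with other size factors or with DESeq2, and Ddit3 there was 0.51 with pooled EPSCs. Halved counts changed 2 of 320 calls, and both were lost. Ddit3 with CD1530 against CHIR then lay just short of the fold threshold. Chac1 in the added CHIR contrast (1.50) then had an adjusted p of 0.074 in edgeR's test.

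With 1 library left out, the number of members passing ranged from 7 to 8 for S1 against EPSCs, 0 to 4 for CHIR against EPSCs, 0 to 2 for Elvitegravir, 3 to 4 for CD1530, 4 to 7 for S1 against CHIR with PD0325901, 3 to 4 for mESCs against EPSCs, 6 to 8 for the mESC minus EPSC response, 0 to 1 for P25, 5 to 7 for the P25 minus S1 response and 8 to 9 for S5 against S3. It ranged from 0 to 1 for each omission at S5, was 2 throughout for the added CHIR contrast (3 with all libraries) and 1 to 2 for the added CD1530 contrast. A group left with 1 library was assumed to vary like the others. Chac1 at S3, near 1 CPM, is the member that depth limits most. Counts of all genes called moved by over 1.5 times in some settings. For Elvitegravir against CHIR there were 2 genes, against 142 with no filter, 70 with the replicate block, 56 by DESeq2 and 0 with the family's own fit, halved counts or both libraries left out. For S5 without BMP4 there were 14, against 36 with no filter, 27 by DESeq2 and 0 in its own fit, and for P38 against P25 85, against 192 in its own fit and 138 with halved counts. With pooled EPSCs there were 7564 and not 4673 for CHIR, and 7517 and not 2331 for the P25 minus S1 response. The added Birabresib contrast had 218, against 341 with no filter and 342 by DESeq2, and the added CD1530 contrast 241, against 369 in its own fit.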

Other observations

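Genes whose pattern over the 26 groups was most like that of the 10 members were named by a fixed rule among 8698 candidates, by Pearson's r of centred log2 group means with the mean of the members. They were Nars (r = 0.962), Yars (0.948), Foxh1 (0.943), Gars (0.930), Gldc (0.928) and Cars (0.926). Nars, Yars, Gars and Cars encode cytosolic synthetases that load asparagine, tyrosine, glycine and cysteine onto tRNA. Nars had 360 ± 17 CPM in S1, against 797 ± 35 CPM in EPSC libraries 1 and 2, and Yars had 195 ± 6 CPM in S5, against 86.5 ± 0.17 CPM in S3. The groups share cells and media, so r is a description with no test.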
